A study of Mus musculus with 74 samples.

Results

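The genes described here are 36 cell cycle and DNA replication genes, taken by symbol from a list that runs from the G1 cyclins and the replication helicase to the proteins of the mitotic spindle, out of 53379 genes counted in mouse L4 dorsal root ganglia (DRG). All 36 symbols had a counted gene.

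A dividing cell passes from G1 through S phase, in which licensed origins are opened by the MCM helicase and DNA is copied, and then through G2 into mitosis, in which cyclin-dependent kinase activity drives spindle assembly and chromosome segregation. Most of these genes are transcribed in waves under E2F factors in late G1 and under FOXM1 in G2. Sensory neurons of the adult DRG have left the cell cycle, while the ganglion also holds satellite glia, Schwann cells, macrophages, endothelium and fibroblasts, which can divide.

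RNA was sequenced from whole L4 DRG, with 1 library per mouse, and from YFP-positive dorsal column sensory neurons of the L4 DRG that were sorted by flow cytometry (FACS) in 3 wells of about 100 cells per mouse. Whole DRG came from female wild type C57BL/6 mice aged 10 to 12 weeks, 4 uninjured and 4 taken 1d after spinal cord injury (SCI), a dorsal hemisection at T9/10. The FACS neurons came from female mice of strain Thy1YFP16 aged 10 to 20 weeks, in which the Thy1 promoter drives YFP in a subset of neurons, so neurons without the transgene's expression were not sampled. They comprised 6 naive mice, 4 mice each at 1d and 3d after SCI, and 4 mice each at 1d and 3d after sciatic nerve injury (SNI), a crush of the nerve. The genotype field of the FACS libraries carries a different number in each library, and the strain field was used. Naive mice of the 1d and 3d titles form a single group, and the titles divide the FACS mice into a FACS set and a FACS2018 set, which share no mouse.

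Whole DRG libraries held 21959030 to 44493319 reads on genes, and the FACS mice, with their wells added together, 30518187 to 83599972. A single well held 1494217 to 49015375. Levels of mice are given as CPM, reads scaled to a common library total after edgeR's TMM factors, which adjust for libraries in which a few genes take many reads. These factors multiplied the unscaled level by 0.985 to 1.03 in whole DRG and by 0.840 to 1.52 in FACS mice, with 1.44, 1.24, 1.45 and 1.52 in naive mice 5 and 6, SCI 3d mouse 3 and SNI 3d mouse 3. Levels and percentages of single wells are unscaled. These are PCR reads without molecular identifiers, so that intervals and limits from counts cover counting error only.

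The sorted wells differed in cell content. Neuron markers (10 genes) held a median of 3.11% of gene reads in 46 wells and 0.0438% in the other 20, whereas the 9 markers of satellite glia and Schwann cells held a median of 0.397% in the 46 wells and 7.38% in the 20. The 20 wells, in each of which the glial markers held 2% or more of gene reads, are called glia-rich below. Glial shares were 0.166 to 1.28% in the 46 wells and 3.21 to 14.2% in the 20, while neuron shares overlapped, at 1.104 to 3.77% and 0.0074 to 1.63%. Wells a and b of SCI 3d mouse 3 held more of the 6 fibroblast markers (4.36 and 5.81%) than of the glial ones (4.10 and 3.21%), so the name does not describe all of their content. The 20 wells came from 14 of the 22 mice, and all 3 wells of SCI 3d mouse 3 and of SNI 3d mouse 3 were among them. Glia-rich wells also held fewer genes, with a median of 5440 genes at 1 CPM or more against 11874 in the other wells. Counts of members called in FACS comparisons are therefore also given without these wells.

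In whole DRG, the comparison of SCI 1d with uninjured mice asks how the ganglion responds to a lesion of the central axon branch. Ccnd1, the D-type cyclin that starts the passage through G1, was lower after SCI, and Prc1, which bundles microtubules of the spindle midzone for cytokinesis, was higher. The other members that could be tested did not pass the test. G1 cyclins, licensing and synthesis genes held the 5 highest levels per length in uninjured ganglia, and most of the mitotic genes were less abundant and had positive fitted fold changes that did not pass the test.

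Of the 36 members, 32 had a mean of 10 reads or more and were tested; Ccnb1, Ccnb2, Aurkb and Ube2c, which encode mitotic cyclins, a mitotic kinase and a ubiquitin-conjugating enzyme, did not reach it. With edgeR's quasi-likelihood test and a Benjamini-Hochberg adjusted p under 0.1 over 17616 genes, 2 members were called, Prc1 higher and Ccnd1 lower. Among all genes tested 408 were called, or 2.32%, so that 2 of 32 members is a small count. Of the 32 members 26 had a positive log2 fold change and 6 a negative one, with a median of 0.19; among all genes tested 9362 were positive and 8254 negative, with a median of 0.01. In whole tissue, fewer cells of a type and less RNA per cell cannot be told apart.

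Ccnd1 was 32.3, 31.1, 34.8 and 27.6 CPM in the uninjured mice and 23.0, 23.0, 22.8 and 19.7 CPM in the SCI mice. Each SCI mouse was below each uninjured mouse. The log2 fold change was -0.51 ± 0.0899 (SE, n = 4 and 4), with an edgeR adjusted p of 0.0332 and lower values in 4 of 4 SCI mice. Without uninjured replicate 2 the adjusted p was 0.109, and without uninjured replicate 3 it was 0.123, in a range of 8.46e-05 to 0.123 over all alternatives. Ccne1, the cyclin that acts with CDK2 at entry into S phase, lay between 9.12 and 12.0 CPM in uninjured mice and between 10.8 and 11.8 CPM after SCI. Per kilobase of exon, Ccnd1 had the highest level of the 36 members in uninjured ganglia at 6.68 CPM per kb, followed by Pcna at 6.63 and Ccne1 at 4.06.

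**Figure D1:**
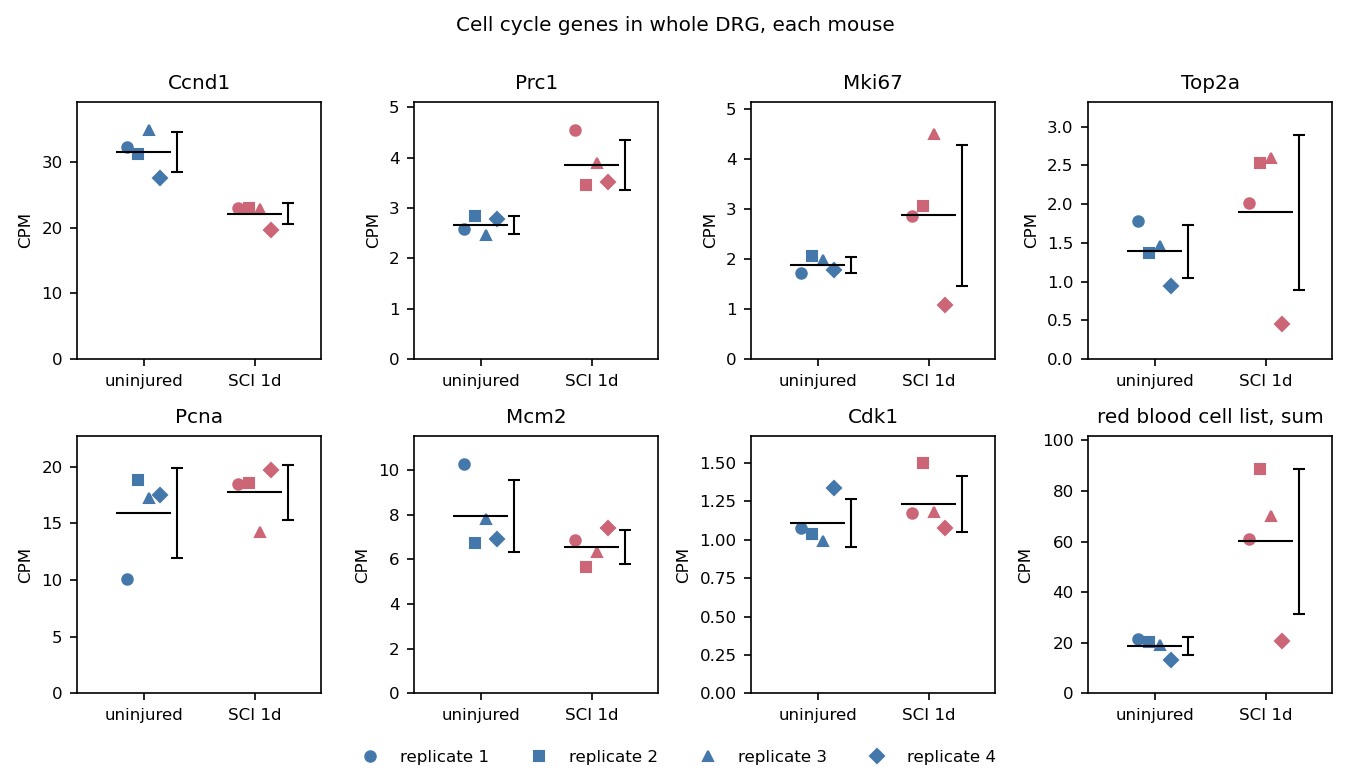
Level of 7 members and the summed level of 5 red blood cell markers in whole DRG, in CPM (vertical axis, from 0), for uninjured mice and for mice 1d after SCI. Symbols are the 4 mice of a group, horizontal lines their mean and bars ± 1 SD; Ccnd1 was lower in each SCI mouse and Prc1 higher, while Mki67 and Top2a were low in SCI replicate 4, as was the red blood cell sum.

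The origin licensing and helicase group holds the 6 subunits of the MCM2 to MCM7 ring, the loader Cdt1 and the helicase activator Cdc45. All 8 were tested, none was called by edgeR, 1 had an unadjusted p under 0.05 (Cdc45), and DESeq2 called none of them either. Mcm2 was 10.2, 6.73, 7.82 and 6.92 CPM in uninjured mice and 6.86, 5.64, 6.32 and 7.42 CPM after SCI. Mcm3 was 3.28, 2.88, 3.37 and 2.75 CPM against 2.79, 2.85, 2.25 and 2.38 CPM. For both subunits the groups overlapped. Mcm4 was 11.1, 11.8, 13.1 and 13.1 CPM in uninjured mice and 13.1, 12.2, 13.7 and 12.5 CPM after SCI. Mcm5 was 6.18, 5.38, 6.01 and 4.83 CPM against 5.79, 6.24, 5.28 and 5.58 CPM. The values of these subunits were mixed between the groups. Mcm6 was 11.2, 10.3, 11.3 and 11.4 CPM in uninjured mice and 12.3, 12.2, 11.8 and 12.2 CPM after SCI. Mcm7 was 7.72, 6.71, 7.11 and 6.74 CPM against 7.94, 7.53, 6.55 and 7.15 CPM. Mcm6 alone of the 6 subunits had each SCI mouse above each uninjured mouse, with a log2 fold change of 0.14 ± 0.0782 (SE, n = 4 and 4) and an edgeR adjusted p of 0.469. The Mcm7 gene overlaps Ap4m1 and Cops6, and how reads in shared exons were counted was not tested.

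Among the genes of DNA synthesis and nucleotide supply, Pcna, the sliding clamp of the replicative polymerases, was 10.1, 18.8, 17.2 and 17.5 CPM in uninjured mice and 18.4, 18.6, 14.2 and 19.7 CPM after SCI. Uninjured replicate 1 was the low sample, and without it the log2 fold change of Pcna went from 0.15 to -0.01. Rrm1, the large subunit of ribonucleotide reductase, was 18.8, 18.4, 19.6 and 20.3 CPM against 18.0, 19.4, 18.4 and 20.0 CPM. The groups overlapped for both genes and for Rrm2, the small subunit. No gene of this group was called by edgeR, with 1 at an unadjusted p under 0.05 (Tyms) and 0 called by DESeq2. Tyms, thymidylate synthase, was between 1.73 and 2.11 CPM in uninjured mice and between 2.15 and 2.56 CPM after SCI, with an edgeR adjusted p of 0.298 and higher values in 4 of 4 SCI mice.

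Of the S, G2 and M cyclins and kinases, 4 of 7 were tested and none was called by edgeR, with 1 at an unadjusted p under 0.05 (Ccna2) and none called by DESeq2. Cdk1, the mitotic kinase, was 1.08, 1.04, 0.994 and 1.34 CPM in uninjured mice and 1.18, 1.50, 1.18 and 1.08 CPM after SCI, with overlapping groups. Ccna2, cyclin A2, was 0.968 to 1.05 CPM in uninjured mice and 1.08 to 1.65 CPM in SCI mice, with an edgeR adjusted p of 0.257 and higher values in 4 of 4 SCI mice. The groups of Aurka and Plk1, kinases of the centrosome and spindle, overlapped. Ccnb1, cyclin B1, which was not tested, had 0 to 13 reads per library.

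The spindle checkpoint and mitotic exit genes had 4 of 5 members tested and none called by edgeR, with 1 at an unadjusted p under 0.05 (Bub1) and none called by DESeq2. Cdc20, the activator of the anaphase-promoting complex, was 1.26, 1.15, 0.654 and 0.813 CPM in uninjured mice and 1.21, 1.11, 1.11 and 0.944 CPM after SCI. Bub1b, a checkpoint kinase, had the highest level per length of this group at 1.71 CPM per kb in uninjured mice. It also varied within a group, from 4.34 to 10.1 CPM in uninjured mice and from 5.95 to 12.98 CPM after SCI. Bub1, its relative at the kinetochore, had the largest fitted fold change of the 32 members, 0.69 ± 0.245 (SE, n = 4 and 4), with overlapping groups and an edgeR adjusted p of 0.232.

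Among the spindle assembly genes, Prc1 was 2.57, 2.84, 2.46 and 2.78 CPM in uninjured mice and 4.54, 3.46, 3.89 and 3.51 CPM after SCI. Each SCI mouse was above each uninjured mouse. The log2 fold change was 0.53 ± 0.128 (SE, n = 4 and 4), with an edgeR adjusted p of 0.0871 and higher values in 4 of 4 SCI mice. Leaving out any 1 of the 8 mice ended this call, with adjusted p from 0.105 to 0.243, as did the replicate number as a block (0.232), in a range of 0.0276 to 0.243 over all alternatives. The Prc1 gene lies at 80294450 to 80316259 on chromosome 7 of GRCm38 and overlaps Rccd1, which was at a mean of 6.60 CPM in uninjured mice and 6.03 CPM after SCI. Tpx2 and Nusap1, which bind spindle microtubules, had overlapping groups.

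The proliferation markers Mki67, a coat protein of mitotic chromosomes, and Top2a, the topoisomerase that untangles replicated DNA, were spread widely among the SCI mice. Mki67 was 1.73, 2.07, 1.99 and 1.78 CPM in uninjured mice and 2.86, 3.07, 4.52 and 1.08 CPM after SCI. Top2a was 1.78, 1.37, 1.46 and 0.944 CPM against 2.02, 2.53, 2.59 and 0.450 CPM. In both genes SCI replicates 1 to 3 were above each uninjured mouse and SCI replicate 4 was below each of them. Cenpf, a kinetochore protein, had the same order, with 0.563 to 0.749 CPM in uninjured mice and 1.01, 0.963, 1.34 and 0.360 CPM in SCI replicates 1 to 4. Mki67 had a log2 fold change of 0.63 ± 0.318 (SE, n = 4 and 4), with an edgeR adjusted p of 0.397 and higher values in 3 of 4 SCI mice. Without SCI replicate 4 it was 0.88 with an adjusted p of 0.0759, the lowest in a range of 0.0759 to 0.593 over all alternatives.

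The same SCI replicate was low in markers of red blood cells, neutrophils and marrow myeloid precursors, whose levels are given here beside the proliferation markers. The summed level of 5 red blood cell markers, with Hbb-bs the most abundant, was 21.3, 20.3, 19.3 and 13.4 CPM in uninjured mice and 61.1, 88.6, 70.1 and 20.7 CPM after SCI; 4 of the 5 were called higher by edgeR, and leaving out single mice ended calls, with adjusted p up to 0.125 for Hbb-bs, 0.197 for Hbb-bt and 0.211 for Hba-a1. The summed level of 8 neutrophil markers, with S100a9 the most abundant, was 9.03, 12.6, 15.9 and 9.05 CPM against 13.7, 33.0, 30.4 and 6.93 CPM. For 7 markers of marrow myeloid precursors, which divide, it was 10.7, 7.70, 11.7 and 5.32 CPM against 10.2, 22.1, 19.5 and 3.64 CPM. SCI replicate 4 thus had the lowest sum of the SCI mice in each of these lists, and no neutrophil, myeloid or red blood cell marker was at 0 in any library. It was not the lowest in the lymphocyte markers, whose sums were 1.98, 3.64, 3.36 and 2.02 CPM in SCI replicates 1 to 4. Of the members, Pcna (19.7 CPM), Tyms (2.56 CPM), Tpx2 (5.40 CPM) and Cdt1 (1.89 CPM) were highest of all whole DRG mice in SCI replicate 4. By edgeR 0 of 7 neutrophil and 0 of 5 myeloid markers tested were called, with 3 and 1 at an unadjusted p under 0.05 and 0 called in either list by DESeq2. The part of blood and marrow cells in the levels of Mki67, Top2a and Cenpf was not tested.

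**Figure D2:**
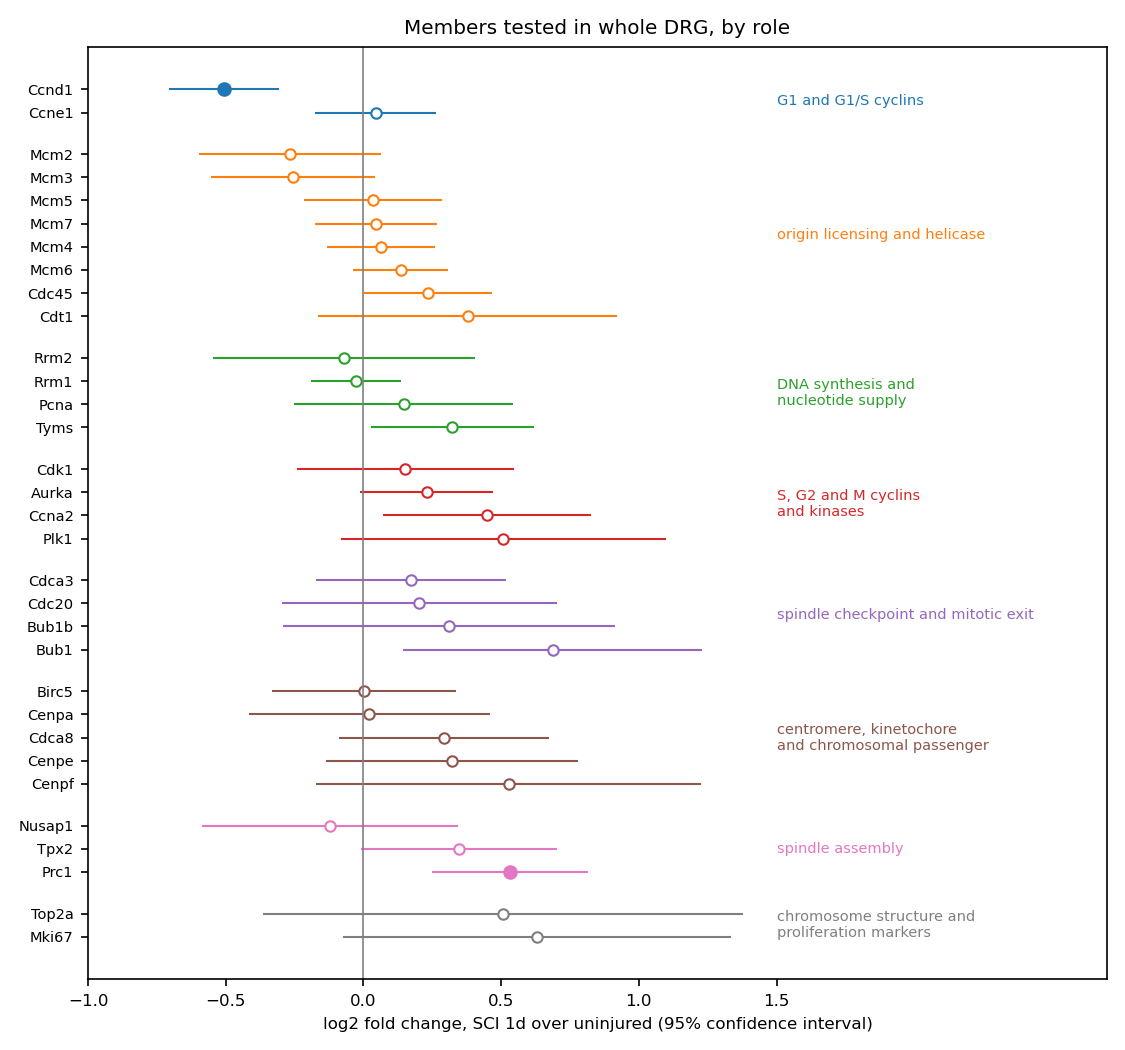
Log2 fold change of the 32 tested members in whole DRG, SCI 1d over uninjured (horizontal axis), by role, with 95% confidence intervals from the edgeR fit of 4 against 4 mice. Filled circles are the 2 called members, Ccnd1 at -0.51 and Prc1 at 0.53, and open circles those that did not pass an adjusted p of 0.1.

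The centromere, kinetochore and chromosomal passenger genes Cenpa, Cenpe, Cenpf, Birc5 and Cdca8 were all tested, with fitted log2 fold changes from 0.00 to 0.53 and adjusted p from 0.478 to 0.999 in edgeR. No member of this group was called, none had an unadjusted p under 0.05, and DESeq2 called none. Over all members, 5 had each SCI mouse above each uninjured mouse (Ccna2, Mcm6, Tyms, Cdc45 and Prc1), where 4.92% of all genes tested did. Ccnd1 was the 1 member with each SCI mouse below, where 6.07% of all genes did.

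Other genes of the cell cycle were taken from 6 lists. Among 7 CDK inhibitors, Cdkn1a, the p21 protein that halts the cycle at G1, was the 1 called, at 11.1, 10.1, 11.6 and 12.9 CPM in uninjured mice and 16.8, 17.4, 22.9 and 14.9 CPM after SCI. Its groups did not overlap, and the log2 fold change was 0.66 ± 0.136 (SE, n = 4 and 4), with an edgeR adjusted p of 0.0498 and higher values in 4 of 4 SCI mice. Among 45 other mitosis genes, Ckap2, a microtubule-associated protein of the spindle, was the 1 called, where 2.32% of all genes were, at 1.64, 1.76, 1.54 and 1.65 CPM against 2.46, 2.60, 2.20 and 2.56 CPM. Ckap2 had a log2 fold change of 0.57 ± 0.128 (SE, n = 4 and 4), with an edgeR adjusted p of 0.0708 and higher values in 4 of 4 SCI mice. Both calls ended when single mice were left out: the adjusted p of Cdkn1a was 0.164, 0.141, 0.108 and 0.127 without uninjured replicates 2 and 3 and SCI replicates 1 and 2, and that of Ckap2 was over 0.1 without any of the mice but uninjured replicate 1 and SCI replicate 3, with a highest value of 0.204. The replicate number as a block also ended both (0.128 for Cdkn1a and 0.184 for Ckap2), and testing all genes with at least 1 read ended that of Ckap2 (0.149).

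The other 4 lists had 0 genes called by edgeR. Of 17 RB and E2F regulators tested, which control transcription at the G1/S boundary, 6 were higher and 11 lower, with a median log2 fold change of -0.09; 2 had an unadjusted p under 0.05, and DESeq2 called 1, E2f1. Of 15 other cyclins, CDKs and CDC25 phosphatases 12 were higher, with a median of 0.07, 2 at an unadjusted p under 0.05 and 0 called by DESeq2. Of 45 other replication genes 29 were higher, with a median of 0.06, 4 at an unadjusted p under 0.05 and 2 called by DESeq2 (Orc1 and Tk1). The 45 other mitosis genes had 36 higher and 9 lower, with a median of 0.17, near the 0.19 of the 32 tested members; 9 had an unadjusted p under 0.05, as did 6 of the 32 members and 2570 of all 17616 genes, and DESeq2 called 1, Ckap2. The 12 p53 and growth arrest targets were divided evenly, with 6 higher and 6 lower, 3 at an unadjusted p under 0.05 and 2 called by DESeq2 (Gadd45a and Gadd45g).

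The comparison of naive FACS neurons with uninjured whole DRG shows which members differ in level between the sorted libraries and the ganglion. Of the 18 naive wells, 6 were glia-rich, from 4 of the 6 mice. Pcna and Rrm1 were higher in the FACS libraries, and Mcm3 and Cdc20 were lower. Strain, library kit, the sort and the number of cells differ between these groups as well as the cells themselves, and their parts cannot be told apart. Of 35 members tested, edgeR called 4, 2 in each direction, where 5842 of 18205 genes (32.1%) were called. The filter, a mean of 10 reads over the 10 mice, was passed by Mcm3 and Cdc20 through the ganglia, with 18 reads and 1 read in all naive mice, so these members were tested because they were higher there. Without glia-rich wells 4 of 35 members (11.4%) and 6289 of 17860 genes (35.2%) were called, with Pcna higher and Mcm3, Cdc20 and Top2a lower, and Rrm1 no longer called.

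On a common scale for both kinds of library, whose TMM factors multiplied levels by 0.693 to 0.714 in ganglia and by 1.01 to 1.92 in naive mice, Pcna was 17.1, 31.5 and 168 CPM (lowest, median and highest of 6 naive mice) and 6.79 to 13.4 CPM in the 4 uninjured ganglia. Each naive mouse was above each ganglion on this scale, but unscaled levels overlapped, with 16.6 to 91.9 CPM in naive mice and 9.79 to 18.8 CPM in ganglia. The log2 fold change was 2.55 ± 0.738 (SE, n = 6 and 4), with an edgeR adjusted p of 0.0272 and higher scaled values in 6 of 6 naive mice; without glia-rich wells it was 1.62 with an adjusted p of 0.0308. Rrm1 was 6.64, 23.4 and 652 CPM in naive mice and 12.7 to 14.3 CPM in ganglia. Naive mouse 5 held the high value, and the groups overlapped. Rrm1 had a log2 fold change of 3.29 ± 1.32 (SE, n = 6 and 4) with an edgeR adjusted p of 0.0945, and it was 1.02 with an adjusted p of 0.253 without naive mouse 5 and 0.18 with an adjusted p of 0.881 without glia-rich wells.

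Mcm3 was 0, 0.0168 and 0.537 CPM in naive mice and 1.94 to 2.36 CPM in ganglia. Each naive mouse was below each ganglion. The log2 fold change was -4.40 ± 1.57 (SE, n = 6 and 4) with an edgeR adjusted p of 0.0639 and lower values in 6 of 6 naive mice. It was -6.17 without glia-rich wells, while leaving out any of the 4 ganglia or naive mouse 3 ended the call, with adjusted p up to 0.128. Cdc20, which did not pass the filter without uninjured replicate 2, had 1 read in all 6 naive mice and 134 in the 4 ganglia, a ratio of 323 per read sequenced with a 95% counting interval of 57.1 to 12870.5, and an edgeR adjusted p of 0.0031 with lower values in 6 of 6 naive mice. The Cdc20 gene overlaps Elovl1, which was at 322 CPM in naive neurons. Mki67, which was not called, was at 0 to 1.15 CPM in naive mice and 1.17 to 1.48 CPM in ganglia, with an edgeR adjusted p of 0.258. It had 59 reads in all naive mice, 55 of them in 1 mouse. Top2a had 1216 reads in the naive mice, 1207 of them in mouse 6, and without glia-rich wells, where it too passed the filter through the ganglia, it was called lower by edgeR with an adjusted p of 0.0135.

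**Figure D3:**
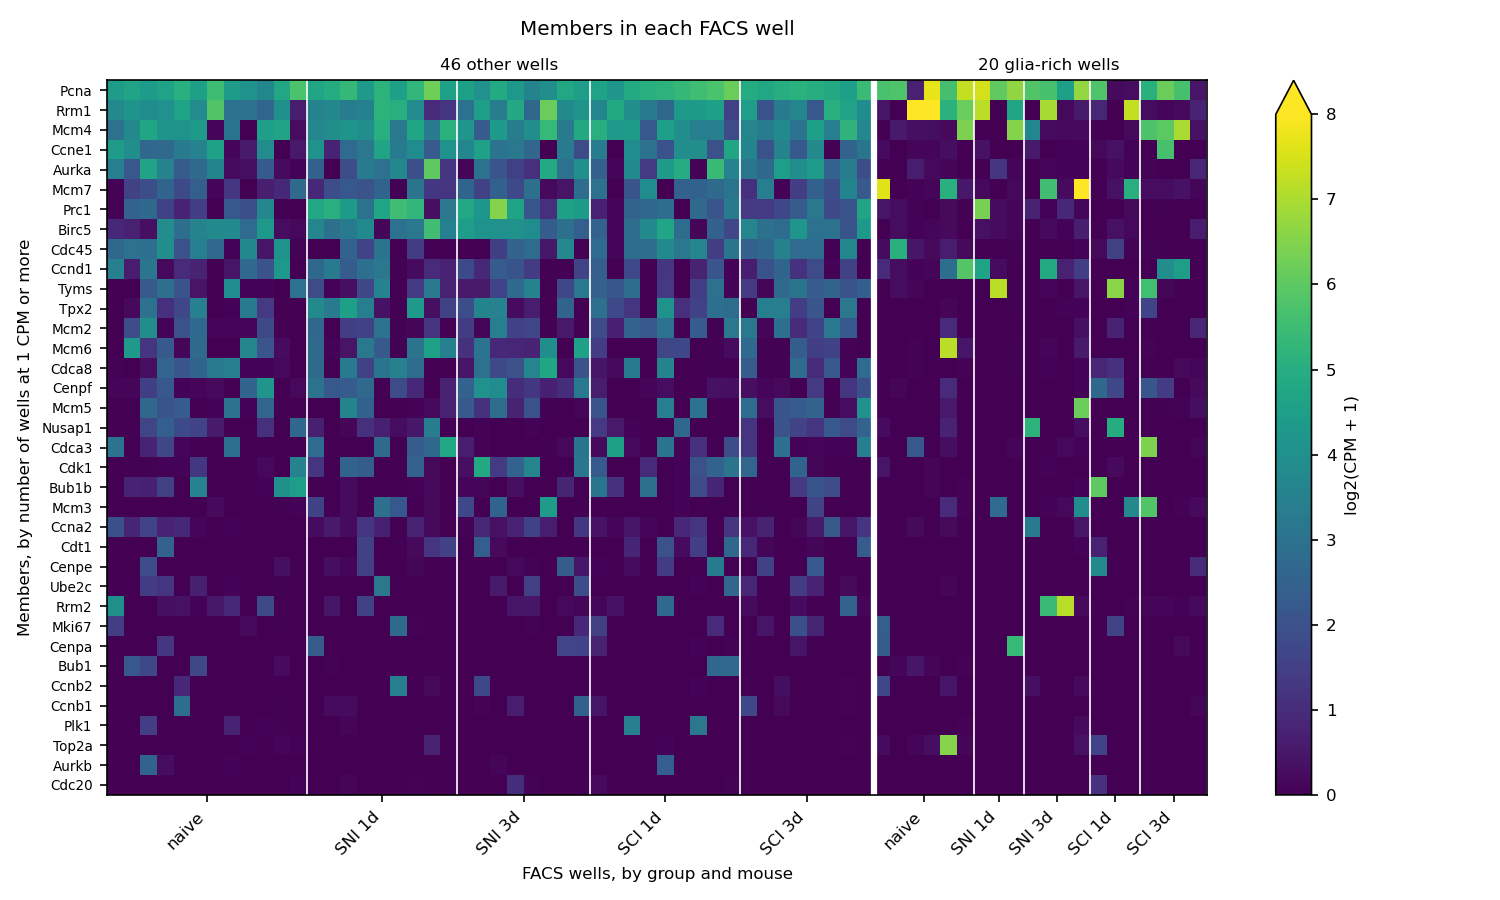
Level of the 36 members (vertical axis, ordered by the number of wells at 1 CPM or more) in each of 66 FACS wells (horizontal axis, by group and mouse), as log2 of CPM + 1; the 46 other wells are on the left and the 20 glia-rich wells on the right. Pcna is found in nearly all wells, Birc5, Aurka and Ccne1 mainly in the other wells, and Mki67, Top2a, Aurkb and Cdc20 in few wells of either kind.

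Among the sorted wells, a median of 12 of the 36 members was at 1 CPM or more, with 15 in the 46 other wells and 4 in the 20 glia-rich wells. Pcna was at 1 CPM or more in 46 of 46 and 16 of 20 wells, Rrm1 in 44 and 8, and Mcm4 in 43 and 6. Birc5, the survivin subunit of the chromosomal passenger complex, was found in 38 of the 46 wells and in 0 of the 20. Aurka and Ccne1 were each found in 38 and 1. At the other end Mki67 was found in 4 and 2 wells, Top2a in 0 and 2, Aurkb in 2 and 0, and Cdc20 in 1 and 1. Thus the wells with high neuronal markers held transcripts of replication genes and of some mitotic genes, while the proliferation markers were under 1 CPM in most of them; Mki67 reached 5.75 CPM in a well of SNI 1d mouse 3. No test of the difference between kinds of well was made, since wells of a mouse are not independent.

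Detection was uneven from well to well. For members with at least 20 reads in a mouse, 40% of 420 values had 90% or more of their reads in a single well of the 3, against 24.0% over all genes. The share over all genes was not matched for level, and the part of level in the difference was not tested. Levels were uneven between mice as well: of the summed level over the 22 mice, naive mouse 6 held 97.1% for Top2a, SNI 3d mouse 3 held 87.7% for Rrm2 and 66.1% for Mcm7, and naive mouse 5 held 52.2% for Rrm1.

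Of the FACS comparisons with naive mice, those after SCI had 4 of 23507 genes called at 1d (0.017%) and 0 at 3d (0), and those after SNI had 161 at 1d (0.685%) and 166 at 3d (0.706%). With 35 members tested, 1 was called, Prc1 at SNI 1d. The direct comparisons of SNI with SCI had 0 of 23507 genes called at 1d (0) and at 3d (0), and so no member. The 4 comparisons with naive mice share the 6 naive mice. For 3d after SNI, edgeR called 0 members, 5 had an unadjusted p under 0.05 and DESeq2 called 5 (Prc1 and Mcm3 higher, Bub1, Bub1b and Top2a lower). For SCI the edgeR count was 0 at both times, with 2 members at an unadjusted p under 0.05 at 1d and 3 at 3d, and 1 (Mcm3 higher) and 3 (Mcm3 higher, Bub1 and Aurkb lower) called by DESeq2. In the direct comparisons the edgeR count was 0 at both times, with 6 members at an unadjusted p under 0.05 at 1d and 0 at 3d. DESeq2 called 3 at 1d (Prc1 higher, Bub1b and Aurkb lower after SNI). At 3d it called 2 by the fitted fold change (Aurkb higher and Top2a lower after SNI). The mean of Top2a ran opposite to this fitted direction, with 0.0389 CPM at SNI 3d and 0.0050 CPM at SCI 3d. Aurkb had at most 1 read in a mouse at SNI 3d and 0 at SCI 3d. Aurkb was at 0 in 18, Bub1 in 15 and Top2a in 12 of the 22 mice. Mcm3 was tested through the injured mice, with at most 14 reads in a naive mouse. Over all 23507 genes, 2992 (SNI 3d), 2981 (SCI 1d), 2208 (SCI 3d), 2408 (direct, 1d) and 1990 (direct, 3d) had an unadjusted p under 0.05, and DESeq2 called 2250, 1223, 1202, 1109 and 989. Without glia-rich wells, which removes SNI 3d mouse 3 and SCI 3d mouse 3, edgeR called 2 of 34 members at SNI 1d (5.88%, against 8.17% of 22620 genes) and 3 at SNI 3d (8.82%, against 7.57%), and 0 in each of the other comparisons, with 5 (SCI 1d), 4 (SCI 3d), 8 (direct, 1d) and 2 (direct, 3d) at an unadjusted p under 0.05. Over all genes edgeR then called 49 (0.22%) at SCI 1d and 201 (0.89%) in the direct comparison at 1d, and 0 at SCI 3d and in the direct comparison at 3d, with 3299 and 1679 at an unadjusted p under 0.05; DESeq2 was not used without these wells.

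Prc1 was 33.9, 8.91, 26.1 and 23.4 CPM at SNI 1d and 17.9, 30.1, 0.441 and 12.9 CPM at SNI 3d. It was 0.311, 3.68, 2.00 and 5.31 CPM at SCI 1d and 1.79, 3.94, 0.0230 and 9.84 CPM at SCI 3d. In the naive mice it was 0.0252, 1.53 and 5.35 CPM (lowest, median and highest). Each SNI 1d mouse was above each naive mouse and each SCI 1d mouse, and SNI 3d mouse 3, whose wells were all glia-rich, was the 1 low mouse of its group. The log2 fold change at SNI 1d was 4.50 ± 1.02 (SE, n = 4 and 6), with an edgeR adjusted p of 0.0694 and higher values in 4 of 4 mice. At SNI 3d the adjusted p was 0.189, and in the direct comparison of SNI 1d with SCI 1d it was 0.461, while DESeq2 called Prc1 in the direct comparison, with a log2 fold change of 3.12 and an adjusted p of 0.0256. This was the 1 alternative of 33 that called it there. Within the FACS set the mean was 21.4 CPM at SNI 1d and 3.09 CPM in naive mice (2 and 4 mice), and within the FACS2018 set it was 24.8 and 0.0386 CPM (2 and 2 mice, both naive mice with 2 glia-rich wells).

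The call of Prc1 at SNI 1d depended on the samples, on the factors for unwanted variation and on the design. The adjusted p was 0.108, 0.115 and 0.104 without naive mice 1, 5 and 6, and 0.120, 0.133 and 0.116 without SNI 1d mice 1, 3 and 4. It was 0.452 with no such factors, 0.535 with the set in the titles (FACS or FACS2018) as a covariate and 0.538 with the replicate number as a block, in a range of 1.95e-05 to 0.538 over all alternatives. Without glia-rich wells it was 0.0218, and Prc1 was then also called at SNI 3d with an adjusted p of 0.0427. In wells that were not glia-rich, Prc1 was at 1 CPM or more in 7 of 12 naive wells (median 1.87 CPM), 8 of 9 wells at SNI 1d (25.7 CPM), 8 of 8 at SNI 3d (21.0 CPM), 6 of 9 at SCI 1d (4.79 CPM) and 8 of 8 at SCI 3d (2.74 CPM).

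**Figure D4:**
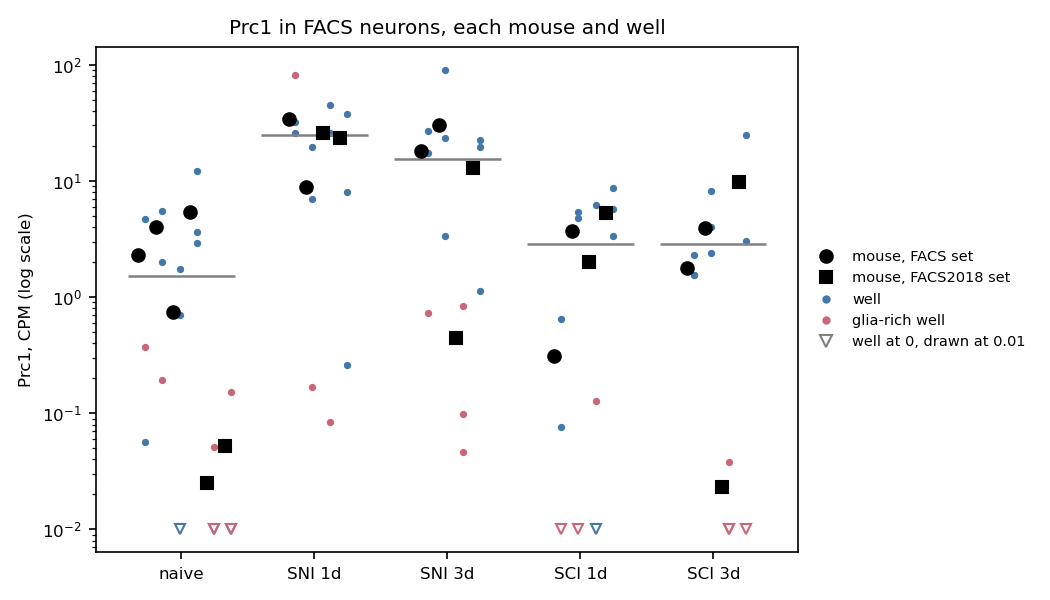
Prc1 in FACS neurons, in CPM on a log scale (vertical axis), by group (horizontal axis). Black symbols are mice, colored dots their wells, open triangles wells at 0 and gray lines the median of the mice; the 4 SNI 1d mice lie between 8.91 and 33.9 CPM, above the 6 naive mice.

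Other members of the FACS neurons were uncalled, and their levels are given by mouse. Mcm3 was 0.848, 0.924, 3.70 and 0.0287 CPM at SNI 1d and 0.989, 1.24, 7.60 and 7.48 CPM at SNI 3d, against 0, 0.0126 and 0.364 CPM in naive mice. After SCI it was 0, 0, 4.23 and 0.0150 CPM at 1d and 0.0111, 0.435, 27.2 and 0.0400 CPM at 3d. Each SNI 3d mouse was above each naive mouse, with an edgeR adjusted p of 0.186 at SNI 3d and 0.226 at SNI 1d, and of 0.341 at SCI 1d and 0.502 at SCI 3d. DESeq2 called Mcm3 higher in all 4 comparisons with naive mice, with adjusted p of 0.0250 and 9.41e-05 at 1d and 3d after SNI and 0.0733 and 0.0914 at 1d and 3d after SCI. The filter in FACS was 20 reads or more in a mouse, and Mcm3 had at most 14 reads in a naive mouse. Mcm3 was therefore tested because it was higher in injured mice, and the 4 comparisons share the naive mice. Without glia-rich wells, where the same limit of the filter holds, edgeR called Mcm3 higher at both times, with adjusted p of 0.0667 at SNI 1d and 0.0450 at SNI 3d. Cdk1 was 0.565, 3.27, 0 and 2.96 CPM at SNI 1d, 10.8, 5.27, 0.0259 and 3.05 CPM at SNI 3d, and 0.0252, 0.0474 and 4.32 CPM in naive mice. It was 1.68, 0.333, 0.0210 and 4.59 CPM at SCI 1d and 0.921, 1.86, 0 and 0 CPM at SCI 3d. Naive mouse 6 held the high naive value, in a well that was not glia-rich (10.7 CPM). Without glia-rich wells, where this well is kept, edgeR called Cdk1 higher at SNI 3d with an adjusted p of 0.0536.

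Pcna had the highest median over the 22 mice, 27.0 CPM. It was 47.1, 29.5, 51.1 and 41.0 CPM at SNI 1d, 20.2, 15.6, 91.2 and 19.5 CPM at SNI 3d, and 15.2, 27.9 and 114 CPM in naive mice. At SCI 1d it was 25.6, 22.3, 24.7 and 52.8 CPM and at SCI 3d 27.0, 27.0, 76.8 and 23.6 CPM. The 4 highest values were in naive mice 5 and 6, SNI 3d mouse 3 and SCI 3d mouse 3, each with at least 2 glia-rich wells. Rrm1 was 30.2, 7.54, 32.0 and 8.51 CPM at SNI 1d, 11.2, 11.8, 69.6 and 35.0 CPM at SNI 3d, and 5.89, 20.5 and 488 CPM in naive mice. After SCI it was 14.2, 8.67, 59.3 and 15.4 CPM at 1d and 8.82, 15.0, 0.207 and 14.1 CPM at 3d. The groups overlapped for both genes.

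The other helicase subunits also overlapped between groups. Mcm2 was 2.22, 1.42, 2.48 and 0.345 CPM at SNI 1d, 0.742, 3.66, 0.130 and 0.116 CPM at SNI 3d, 1.36, 3.18, 2.21 and 3.34 CPM at SCI 1d, 4.59, 3.24, 0 and 1.62 CPM at SCI 3d, and 0, 0.981 and 9.33 CPM in naive mice. Mcm4 was 10.0, 11.4, 41.5 and 18.5 CPM, 9.68, 12.0, 0.233 and 27.4 CPM, 19.7, 9.38, 12.0 and 7.81 CPM, and 10.7, 10.3, 109 and 18.2 CPM in the same order of injured groups, and 8.33, 13.1 and 42.0 CPM in naive mice. Mcm4 was the subunit with the highest mean level per length over the mice, 5.48 CPM per kb. Mcm5 was 0, 5.39, 0 and 0.0862 CPM at SNI 1d, 2.00, 2.65, 38.7 and 0.0436 CPM at SNI 3d, 1.44, 0, 3.07 and 2.39 CPM at SCI 1d, 2.62, 2.49, 0.0460 and 5.64 CPM at SCI 3d, and 0, 0.646 and 4.16 CPM in naive mice. Mcm6 was 2.504, 3.74, 1.34 and 10.0 CPM, 3.30, 0.655, 0.311 and 14.4 CPM, 0.718, 0, 1.49 and 0.0602 CPM, and 1.04, 2.51, 0.0230 and 0.0200 CPM in the same order, and 0.126, 3.07 and 49.0 CPM in naive mice. Single mice stand out in both subunits, SNI 3d mouse 3 for Mcm5 and naive mouse 6 for Mcm6. Mcm7 was 1.29, 2.47, 1.76 and 4.91 CPM at SNI 1d, 2.80, 3.89, 191 and 2.57 CPM at SNI 3d, 3.11, 5.94, 12.3 and 5.60 CPM at SCI 1d, 3.10, 2.46, 0.322 and 5.62 CPM at SCI 3d, and 0.604, 2.44 and 20.1 CPM in naive mice.

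Ccnd1, which was lower in whole DRG after SCI, was 1.91, 0.950, 0.442 and 1.53 CPM at SCI 1d and 3.26, 1.01, 16.2 and 0.760 CPM at SCI 3d, against 0.498, 4.38 and 30.6 CPM in naive mice. It was 8.80, 4.19, 2.79 and 0.345 CPM at SNI 1d and 1.36, 2.39, 17.2 and 0.828 CPM at SNI 3d. The 4 highest values were in the same 4 mice as for Pcna. Ccnd1 was called in 0 FACS comparisons by edgeR and by DESeq2, with 1 at an unadjusted p under 0.05 (SCI 1d). The proliferation markers were low in all groups. Mki67 was 0, 0, 2.19 and 0.0287 CPM at SNI 1d, 0, 0.0177, 0 and 0.349 CPM at SNI 3d, 0.837, 0.356, 0 and 0.376 CPM at SCI 1d, 0.111, 1.22, 0 and 0 CPM at SCI 3d, and 0, 0.0126 and 1.02 CPM in naive mice. Top2a was at 0 in 12 of the 22 mice and under 1 CPM in all but naive mouse 6, which held 31.4 CPM. Cdc20 was at 0 in 16 mice, with a highest value of 0.318 CPM at SNI 3d. A count of 0 in a mouse allows up to 3 reads of its total. The remaining members by median level ran from Birc5 at 6.84 CPM and Ccne1 at 5.80 CPM to Plk1, Bub1, Aurkb, Cenpa, Ccnb1 and Ccnb2 at 0.

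The promoters of the members share motifs that the choice of genes did not use. RefSeq promoter sequences of GRCm38.p6, 250 bases before to 50 bases after the start, were held for 31 of the 36 members and 27025 genes. The CCAAT box (CCAAT on either strand), which NF-Y binds, was in 26 of 31 members (83.9%) and in 41.1% of all genes. The CHR element (TTTGAA or TTTAAA on either strand), the site of the DREAM complex in mitotic genes, was in 22 members (71.0%) and in 30.6% of all genes. An E2F site, read as TTTCCCGC, TTTGGCGC, TTTCGCGC or TTTGCCGC on either strand, was in 6 members (19.4%), Cdk1, Cdt1, Mcm3, Mcm5, Mcm6 and Mcm7, and in 2.61% of all genes. Both a CCAAT box and a CHR element were found in 20 members, and 2 had none of the 3 motifs. A match describes the letters and is no measured site.

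Prc1 was called in whole DRG at SCI 1d and in FACS neurons at SNI 1d, but not in FACS neurons after SCI. Ckap2 was called in whole DRG at SCI 1d. In the sequences below the CCAAT box and CHR element are in capitals on the strand of the gene. ATTGG is the CCAAT box read on the opposite strand. The promoter sequences of Prc1, Ckap2 and the marker Mki67 are printed to show how these motifs lie. They are chr7:80294316-80294451 on the plus strand for Prc1, up to its last motif, from the start with more motifs of the 2 listed; chr8:22185820-22185979 on the minus strand for Ckap2; and chr7:135716380-135716539 on the minus strand for Mki67, all in GRCm38.p6.
Prc1: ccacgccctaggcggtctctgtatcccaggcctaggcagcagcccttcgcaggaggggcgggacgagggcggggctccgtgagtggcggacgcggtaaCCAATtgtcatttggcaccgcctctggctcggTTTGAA
Ckap2: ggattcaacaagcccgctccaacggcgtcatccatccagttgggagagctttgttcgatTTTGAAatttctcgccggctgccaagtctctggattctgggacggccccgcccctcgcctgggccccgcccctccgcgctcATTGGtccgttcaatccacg
Mki67: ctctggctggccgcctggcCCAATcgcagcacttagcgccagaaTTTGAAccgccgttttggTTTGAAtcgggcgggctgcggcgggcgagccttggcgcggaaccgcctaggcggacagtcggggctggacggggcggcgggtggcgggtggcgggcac
Prc1 and Ckap2 each hold 1 CCAAT box and 1 CHR element in the stretch shown, and Mki67 holds 1 CCAAT box and 2 CHR elements.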

How the data were processed

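The deposited files hold raw read counts per gene, 1 file for each of 74 libraries; per the labels and the study's methods, the authors trimmed reads with cutadapt, aligned them to mm10 with STAR 2.5.3a and counted them with HTSeq 0.6.1. The 5 lines that name no gene were left out. The authors' 7 comparison tables, with 123 columns of values per library, were not used here. IDs were matched to GENCODE vM21 (53274 of 53379). Reads assigned to no gene were 33.1 to 37.0% in whole DRG and 42.6 to 66.9% in wells.

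The 36 members, and the lists of roles, pathways and markers, were chosen with earlier results of these data known. Counts of the 3 wells of a mouse were added. Tests were edgeR 4.0.16 quasi-likelihood F-tests (TMM, R 4.3.3) with Benjamini-Hochberg adjusted p under 0.1 over all genes tested: in whole DRG genes with a mean of 10 reads or more; in FACS genes with 20 reads or more in a mouse, all 22 mice in a single fit (the study left out some FACS samples as outliers, which the labels do not identify) with 2 RUVr factors, fitted here from deviance residuals. Naive FACS and uninjured DRG were fitted together without such factors. The fits were tested on simulated data; in whole DRG the false calls among all calls were above the share that the threshold allows, more so with DESeq2 than with edgeR, and DESeq2 was not tested so in FACS. Alternatives were DESeq2 1.42.0, other normalizations, filters, thresholds and factors, the set in the titles (FACS or FACS2018), replicate blocks, leaving out glia-rich wells and leaving out each mouse. Values in every sample were planned for Mki67, Top2a, Ccnd1, Pcna, Cdk1, Mcm2 to Mcm7, called members and the 5 members with the highest FACS mean; of pathway lists, called genes, at most 3 per direction. Other members are named as examples chosen after their values were seen. Tables were made with Python 3.11.15, pandas 2.3.3 and scipy 1.17.1, and figures with matplotlib 3.10.9.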

Additional observations from a re-analysis of the deposited data

Results flagged for a closer look

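In 119 groups of 4 or 6 mice, the highest or lowest value of a named member or marker sum was compared with the others, and 34 groups held a value set far from the rest by Dixon's criterion (31 of them in FACS neurons), where chance gives about 1 in 20 for values with a normal spread. That share does not apply to groups with most mice at 0, in which a single read can set a mouse apart, as for Cdc20 in naive mouse 6 and Top2a in SCI 3d mouse 4. The 3 mice with 4 or more such values each had at least 2 glia-rich wells, and their TMM factors raise the levels of all genes. Naive mouse 6 was high in Ccnd1 (30.6 CPM, others up to 11.2), Cdk1 (4.32, others up to 0.466), Mcm3 (0.364, others up to 0.0466), Mcm4 (42.0, others up to 19.5), Mcm6 (49.0, others up to 9.15) and Top2a (31.4, others up to 0.176), and held the 1 read of Cdc20 in this group (0.0260 CPM). SCI 3d mouse 3 was high in Ccnd1 (16.2 CPM), Mcm3 (27.2), Mcm4 (109) and Pcna (76.8). SNI 3d mouse 3 was high in Ccnd1 (17.2 CPM), Mcm5 (38.7), Mcm7 (191), Pcna (91.2) and Top2a (0.156).

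The other values in FACS neurons lay in at most 2 genes of a mouse. Rrm1 was 488 CPM in naive mouse 5, with the others at 5.89 to 47.0, and 59.3 CPM in SCI 1d mouse 3, which was also high in Mcm3 (4.23). Pcna was 52.8 CPM in SCI 1d mouse 4, Mcm2 was 9.33 CPM in naive mouse 2, and Mcm5 was 5.39 CPM in SNI 1d mouse 2. Mki67 was high in naive mouse 1 (1.02 CPM), SCI 3d mouse 2 (1.22), SNI 1d mouse 3 (2.19) and SNI 3d mouse 4 (0.349), in groups whose other mice were at or near 0. Top2a in SCI 1d mouse 1 (0.359 CPM), SCI 3d mouse 4 (0.0200) and SNI 1d mouse 4 (0.144), and Cdc20 in SCI 1d mouse 1 (0.287 CPM) and SNI 3d mouse 2 (0.318), were of the same kind. The cause of these values was not tested.

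In whole DRG, Ccnd1 was 19.7 CPM in SCI replicate 4, below 22.8 to 23.0 in the other SCI mice, and Mcm6 was 10.3 CPM in uninjured replicate 2, below 11.2 to 11.4 in the others. The sum of neuron markers was 19862 CPM in SCI replicate 3, below 20891 to 20988 in the other SCI mice.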

How the results depend on the processing

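In whole DRG, 2 members were called; 1 (Ccnd1) was called with genes of at least 1 read tested, at an adjusted p under 0.05, and with the replicate number as a replicate block, a fit that called 127 genes in place of 408, and 0 to 2 when each mouse was left out. DESeq2 called 2 members there among 929 genes. For naive FACS neurons against whole DRG, 4 were called, 2 at an adjusted p under 0.05, and 1 (without uninjured replicate 2) to 8 (without naive mouse 6) when a mouse was left out, with 2 without uninjured replicates 1, 3 or 4.

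For SNI 1d, 1 member was called, and DESeq2 called 4 (Prc1 and Mcm3 higher, Bub1b and Aurkb lower). The limit of the filter given above for Mcm3, Bub1b and Aurkb holds here too. By edgeR 0 were called at an adjusted p under 0.05, with no RUVr factors, with 1 factor and with 2 from uncentred residuals (4, 5, 5 and 6 at an unadjusted p under 0.05). The edgeR count was also 0 with the set in the titles (FACS or FACS2018) as a covariate and with the replicate block (5 and 4 at an unadjusted p under 0.05). Leaving out glia-rich wells gave 2, and leaving out each mouse 0 to 1, with 0 without naive mice 1, 5 and 6 and SNI 1d mice 1, 3 and 4. For SNI 3d, 0 were called, 5 by DESeq2, 3 without glia-rich wells, and 0 to 2 without each mouse, with 2 (Prc1 and Mcm3) without SNI 3d mouse 3. For SCI 1d, SCI 3d and the direct comparisons at 1d and 3d, 0 were called by edgeR and 1, 3, 3 and 2 by DESeq2. The number of all genes called moved as well: for SNI 1d from 161 to 1539 by DESeq2, 1848 without glia-rich wells and 0 with no factors, and for SNI 3d from 166 to 2250, 1712 and 0. The cause was not tested.

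Of the named members in whole DRG, 3 with fold changes near 0 turned in direction when a mouse was left out. Pcna ranged from -0.0117 (without uninjured replicate 1) to 0.25, Mcm5 from -0.0323 (without uninjured replicate 4; -0.0108 without SCI replicate 2) to 0.0825, and Rrm1 from -0.0551 to 0.0021 (without SCI replicate 1). Members detected per well were 12 at 1 CPM, 7 at 5 CPM, 12 at 10 reads and 15 without glia-rich wells. Replicate numbers were treated as names only. The correlation of residuals between mice of the same number was over 0.1 in 1 of 4 pairs in whole DRG (-0.228 to 0.335) and in 32 of 48 pairs in FACS (-0.0442 to 0.393). With a biological coefficient of variation of 1.2 in FACS mice, against 0.133 in whole DRG, smaller changes of members pass the test in whole DRG than in FACS neurons; the size of change that could be found for each member was not computed.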

Other observations

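Markers of other cells in whole DRG also moved after SCI. Of 11 macrophage markers, edgeR called Cd163 higher (log2 fold change 0.90, adjusted p 0.0141, higher in 4 of 4 SCI mice) and Itgam higher (1.14, 0.0469, 4 of 4), and Cx3cr1, the fractalkine receptor, lower (-0.62, 0.0871, lower in 4 of 4). Ednrb, an endothelin receptor of satellite glia, was lower (log2 fold change -0.49, edgeR adjusted p 0.0358, lower in 4 of 4), and so was the matrix protein Lum of fibroblasts (-0.71, 0.0949), while Dcn, the most abundant of the 6 fibroblast markers, had a positive fitted log2 fold change of 0.33 with an edgeR adjusted p of 0.230, and the fibroblast sums of the groups overlapped. Of 6 erythroid precursor markers 3 were tested and Epb42 was higher (log2 fold change 1.88, edgeR adjusted p 0.0806). The summed level of neuron markers was 20381 to 23088 CPM in uninjured mice and 19862 to 20988 CPM after SCI; 0 of the 10 were called by edgeR, 0 had an unadjusted p under 0.05 and DESeq2 called 0. Leaving out single mice ended the calls of Itgam (adjusted p up to 0.137), Cx3cr1 (0.236), Ednrb (0.127), Epb42 (0.236) and Lum (0.249), while Cd163 stayed at or under 0.0601 in each of the 14 alternatives.

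Of the lists in FACS mice, on the TMM scale that raises levels 1.45 fold in SCI 3d mouse 3, the fibroblast sum was 66918 CPM in SCI 3d mouse 3 and 13247 CPM in naive mouse 5, and the red blood cell sum was 1399 CPM in naive mouse 1. Macrophage markers summed to 1245 CPM in SCI 3d mouse 3.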
